A study of Mus musculus with 6 samples.

Results

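The mitochondrial ribosomal proteins were taken as every gene whose symbol begins with Mrpl or Mrps followed by a number and at most one letter from a to c, which gave 78 of the 57010 genes in the count table. By their names, 49 belonged to the large subunit of the mitochondrial ribosome and 29 to the small subunit. The study asked how monocytes, the precursors of bone-resorbing osteoclasts, differ between skeletal sites in mice of 1 year of age. RNA was sequenced in bulk from bone marrow monocytes of the femur (libraries S13, S15 and S18, n = 3) and of the mandible (S16, S19 and S23, n = 3). All mice were C57BL/6 in the labels (C57BL/6J in the study's methods), with no treatment or engineered allele named, and cells were enriched with a magnetic kit that removes other cells and leaves monocytes untouched. Male and female mice were used in the study, while the labels did not give sex, animal or batch per library, so p-values measure the spread between these libraries, which may in part be technical.

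Mitochondrial ribosomes translate the few proteins encoded by mitochondrial DNA, all of them parts of the respiratory chain and the ATP synthase. The large subunit forms peptide bonds and the small subunit reads the messenger RNA. The protein genes of both subunits lie in the nucleus, so their products are imported and assembled with ribosomal RNA that is made inside the mitochondrion. Some of the proteins have a counterpart in bacterial ribosomes and others are specific to mitochondria. Osteoclast precursors are known to raise their mitochondrial content as they differentiate.

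The libraries held 15718782 (mandible S23) to 25371474 (femur S18) counts, and 18114 genes passed the filter on low counts. Differences were tested with edgeR's quasi-likelihood method, and a gene was called when it changed at least 2-fold with a Benjamini-Hochberg adjusted p under 0.05, which 938 genes (5.18%) did in either direction. Monocyte markers were present in both groups, with all 9 of 9 detected in every library and a summed level of 2358 to 4212 CPM (counts relative to the TMM-scaled library total) in the femur and 2216 to 4433 CPM in the mandible. Markers of other cells differed. Mesenchymal and osteoblast markers summed to 157 to 187 CPM in the femur and 8828 to 15142 CPM in the mandible (11 of 11 called higher), markers of tooth-forming epithelium to 0.221 to 3.18 and 5770 to 11300.5 CPM, and megakaryocyte markers to 559 to 894 and 73.4 to 106 CPM. Erythroid markers summed to 301 to 1878 CPM in the femur and 163 to 253 CPM in the mandible (4 called lower), and cell division markers to 2557 to 3049 and 1760 to 2686 CPM (1 called lower). Neutrophil markers ranged from 4004 CPM in femur S15 to 34255 CPM in femur S13, against 4240 to 11116 CPM in the mandible. In bulk RNA, a change in the share of one cell type and a change in RNA per cell cannot be told apart, and the part of these other cells in the levels described here was not tested.

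RefSeq promoter windows (GRCm38.p6, 250 before and 50 after each transcription start) were matched for 69 of the 78 genes, 43 of the large and 26 of the small subunit. Motifs of the factors known to drive nuclear genes for mitochondrial proteins were searched on both strands, and the choice of motifs was made with earlier results known. An ETS motif (CCGGAAG), to which GABP binds, was in 34.7% of the 75 windows against 8.86% of all 32851 windows. The NRF1 motif (GCGC, any base, then TGCGC) was in 17.3% against 4.60%, and a YY1 motif (AAGATGGCG) in 10.7% against 1.40%. The GC box (GGGCGG) was in 52.0% against 35.7%, while the TATA motif (TATAAA) was less frequent in the members, at 6.67% against 13.6%. Genes with and without a motif had like median log2 fold changes (mandible over femur) for ETS, at -0.60 and -0.63. The medians were -0.82 in the 13 genes with an NRF1 motif and -0.60 without. They were -0.33 in the 8 genes with a YY1 motif and -0.65 without, and these differences were not tested. The 250 bases upstream of 4 genes are shown because they hold no annotated exon of any gene. They are examples without a match and with ETS or NRF1 matches, which are in capitals. None holds a YY1 match, and GC boxes and TATA motifs were not marked. Mrps14, described first below, lies on the plus strand after chr1:160194965-160195214, and Mrpl20 on the plus strand after chr4:155802628-155802877. Neither held an ETS, NRF1 or YY1 match in these bases. Mrpl58 (plus strand, chr11:115403502-115403751) held 1 ETS match and Mrpl45 (plus strand, chr11:97315466-97315715) held 2 NRF1 matches.
Mrps14: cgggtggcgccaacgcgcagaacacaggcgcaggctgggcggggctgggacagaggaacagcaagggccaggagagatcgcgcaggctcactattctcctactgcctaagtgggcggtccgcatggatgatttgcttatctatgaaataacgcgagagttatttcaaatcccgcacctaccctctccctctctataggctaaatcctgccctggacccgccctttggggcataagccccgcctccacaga
Mrpl20: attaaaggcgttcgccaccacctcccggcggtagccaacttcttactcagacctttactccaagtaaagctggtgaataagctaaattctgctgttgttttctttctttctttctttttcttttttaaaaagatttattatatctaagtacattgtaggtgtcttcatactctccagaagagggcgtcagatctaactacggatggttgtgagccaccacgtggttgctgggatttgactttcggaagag
Mrpl58: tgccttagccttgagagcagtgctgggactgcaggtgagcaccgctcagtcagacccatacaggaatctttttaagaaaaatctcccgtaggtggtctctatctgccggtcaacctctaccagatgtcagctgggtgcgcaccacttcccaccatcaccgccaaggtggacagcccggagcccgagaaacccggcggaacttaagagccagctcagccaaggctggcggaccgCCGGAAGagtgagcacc
Mrpl45: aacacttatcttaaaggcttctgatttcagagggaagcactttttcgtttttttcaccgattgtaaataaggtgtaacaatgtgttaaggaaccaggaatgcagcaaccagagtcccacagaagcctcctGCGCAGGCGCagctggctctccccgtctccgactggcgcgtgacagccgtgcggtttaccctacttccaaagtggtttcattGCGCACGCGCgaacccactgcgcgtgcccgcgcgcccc

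To determine whether the mitochondrial ribosome differs between sites, each member was compared between mandible and femur. The log2 fold change was below 0 for 75 of the 77 tested members, 47 of 48 in the large and 28 of 29 in the small subunit, while 52.2% of all tested genes were below 0. The median log2 fold change was -0.60 for the members and -0.038 for all tested genes. All 3 mandible libraries lay below all 3 femur libraries for 30 members, or 39.0%, against 11.5% of all tested genes, and for no member did they lie above (12.7% of all tested genes). An exact two-sided permutation test gives no p below 0.1 with 3 libraries per group, so non-overlap is the most it can show for one gene.

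Single members passed the test rarely. Only 1 member, Mrps14, was called lower (1.3% of all tested genes were called lower, and 1.32% were lower at an adjusted p under 0.05 whatever the fold), and none was called higher. At an unadjusted p under 0.05, 26 members were lower in the mandible (33.8%, against 7.25% of all tested genes) and 0 were higher (9.18%). DESeq2 called 6 members lower, or 7.79%, against 2.47% of all tested genes. The count of 26 was 11 when femur S13 was left out, 15 when S18 was and 38 when S15 was, where the share of all tested genes was 3.96%, 5.05% and 9.67%. The log2 fold change was -1 or less for 13 members, 11 of the large and 2 of the small subunit. That is 16.9% of the tested members, near the 12.9% of all tested genes. The plot of fold changes shows every tested member with its standard error.

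**Figure D1:**
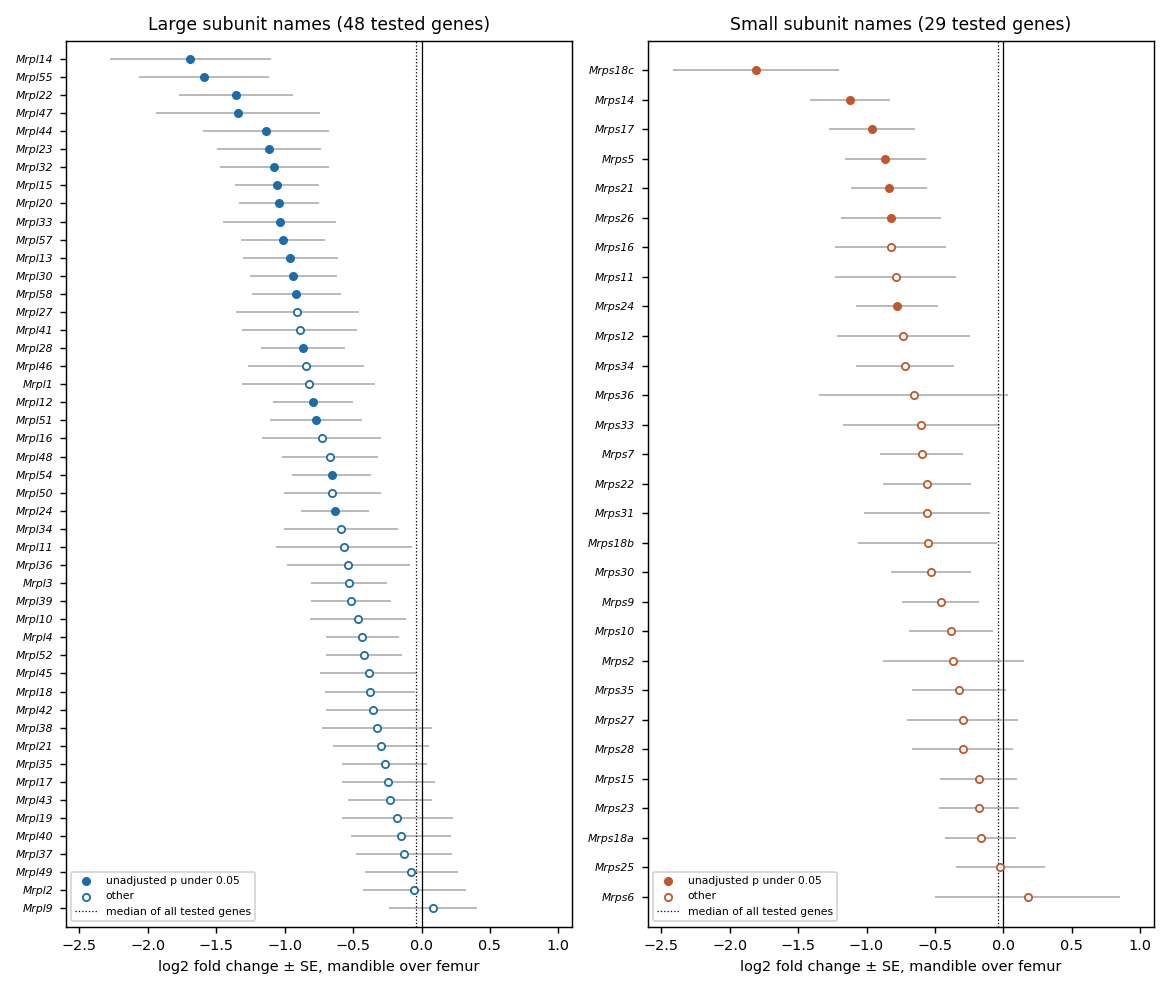
Log2 fold change (mandible over femur) with its standard error for the 48 large and 29 small subunit genes tested, filled where the unadjusted p is under 0.05. Only Mrpl9 and Mrps6 lie above 0, and both have error bars that cross it.

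Mrps14 encodes a small subunit protein with a bacterial counterpart (GRCm38 chr1:160195215-160202170, plus strand, in GENCODE M21). Its level was 50.6, 41.4 and 51.2 CPM in femur S13, S15 and S18, and 15.96, 26.1 and 23.7 CPM in mandible S16, S19 and S23. Every mandible library was below every femur library. The group means were 47.7 ± 5.49 and 21.9 ± 5.28 CPM (SD, n = 3 each), a log2 fold change of -1.12 (SE 0.29, edgeR adjusted p = 0.0496). The call lay at the threshold. Leaving out femur S13 gave an adjusted p from edgeR of 0.21, and leaving out femur S18 gave 0.22. Leaving out a mandible library gave 0.16 for S16, 0.10 for S19 and 0.088 for S23. Of the 6 libraries left out in turn, femur S15 alone kept the call (edgeR adjusted p = 0.027).

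The 3 genes of the Mrps18 family are related to each other in sequence. Mrps18c is counted here as having a bacterial counterpart, and Mrps18a and Mrps18b as specific to mitochondria. Mrps18c (GRCm38 chr5:100798627-100804471) gave 9.67, 7.28 and 9.81 CPM in the femur libraries and 2.90, 3.47 and 1.26 CPM in the mandible libraries. The groups did not overlap, and its log2 fold change of -1.81 (SE 0.61) was the most negative of all 77 members. It did not pass the test (edgeR adjusted p = 0.14), and 23.2% of its exon bases overlap another gene, so its count may include or lack shared reads. With the trend on transcript length removed its log2 fold change was -1.01. Mrps18b, also of the small subunit, had 8.78, 11.4 and 5.61 CPM in the femur and 4.95, 6.74 and 5.89 CPM in the mandible, where the groups overlap (log2 fold change -0.55, SE 0.51). Mrps18a, which sits in the large subunit in structures of the mammalian ribosome despite its name, had 37.1, 35.3 and 31.7 CPM against 32.4, 29.5 and 30.7 CPM (log2 fold change -0.17, SE 0.26, and 0.45 with the trend on principal transcript length removed). The difference among the 3 paralogs was not tested.

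Other small subunit genes with non-overlapping groups included Mrps17, at 30.4, 31.2 and 33.3 CPM in the femur and 12.5, 15.4 and 21.05 CPM in the mandible. Its log2 fold change was -0.96 (SE 0.31, edgeR adjusted p = 0.13). Mrps5, a counterpart of bacterial S5, ranged over 29.9 to 41.5 CPM in the femur and 16.7 to 24.6 CPM in the mandible (log2 fold change -0.86, SE 0.30). Per kilobase of the length column, Mrps21 was the most abundant small subunit messenger RNA (39.4 CPM per kilobase over the 6 libraries). Its 37.3, 31.7 and 43.0 CPM in the femur lay apart from 19.9, 21.8 and 21.1 CPM in the mandible (log2 fold change -0.83, SE 0.28). Its log2 fold change was -0.10 with the trend of log2 CPM on the length column removed in each library, and 0.10 with the trend on principal transcript length removed. Mrps24 followed the same order, with 36.4 to 46.8 CPM against 18.5 to 31.3 CPM (log2 fold change -0.78, and -0.24 with the transcript length trend removed). Mrps15 and Mrps23, at 23.3 and 20.5 CPM per kilobase, had log2 fold changes of -0.18 each and overlapping groups, and turned to 0.16 and 0.20 with the trend on the length column removed and to 0.41 and 0.19 with that on transcript length.

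At the other end, Mrps6 was the only small subunit gene with a positive value (log2 fold change 0.18, SE 0.67). Its levels were 4.42, 3.50 and 3.76 CPM in the femur and 2.25, 5.79 and 5.15 CPM in the mandible, so mandible S16 lay lowest and the other mandible libraries highest. Mrps25 had a log2 fold change of -0.02, from 40.3 to 43.6 CPM in the femur and 27.7 to 62.9 CPM in the mandible. In Mrps25, 69.8% of exon bases overlap Nr2c2 on the opposite strand, and the use of strand in counting was not given. Its count may therefore include reads of that gene or lack shared reads. Mrps33 varied most within a group, at 2.75 CPM in mandible S16 and 12.5 and 17.8 CPM in S19 and S23, against 18.7, 11.9 and 19.4 CPM in the femur.

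Besides Mrps18a, a pair of genes with small subunit names do not belong to that subunit in known structures. Mrps30, found in the large subunit, had 43.2, 34.2 and 44.1 CPM in the femur and 20.6, 33.6 and 29.9 CPM in the mandible, without overlap (log2 fold change -0.53, SE 0.29). Mrps36, known as a component of the 2-oxoglutarate dehydrogenase complex, had 5.14, 7.37 and 5.26 CPM against 1.25, 5.27 and 4.75 CPM, and these groups overlap.

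**Figure D2:**
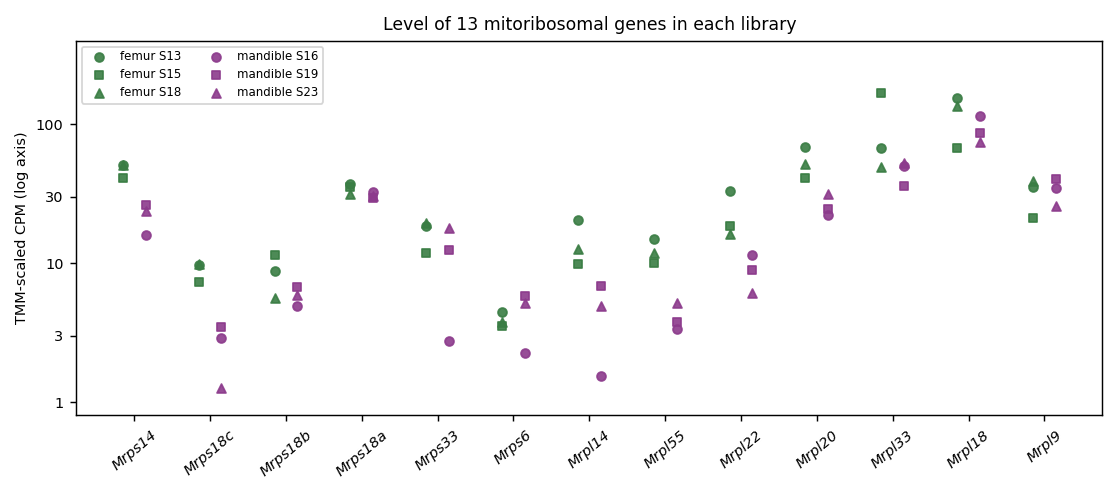
TMM-scaled CPM on a log axis for 13 members, femur libraries in green and mandible libraries in purple, each library with its own symbol. The groups are apart in Mrps14, Mrps18c, Mrpl14, Mrpl55, Mrpl22 and Mrpl20, and overlap in the other 7 genes shown.

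In the large subunit, none of 48 tested genes passed the test across all genes, and 19 were lower at an unadjusted p under 0.05. The most negative was Mrpl14, a protein at the face that meets the small subunit, with 20.5, 9.86 and 12.7 CPM in the femur and 1.55, 6.88 and 4.92 CPM in the mandible. Its groups did not overlap, and its log2 fold change was -1.69 (SE 0.59, edgeR adjusted p = 0.15). Mrpl55 had 15.02, 10.1 and 11.9 CPM against 3.35, 3.798 and 5.15 CPM (log2 fold change -1.59, SE 0.47, edgeR adjusted p = 0.088). Mrpl22, which lines the exit tunnel of the growing peptide, had 33.1, 18.5 and 16.3 CPM against 11.5, 8.93 and 6.12 CPM (log2 fold change -1.35, SE 0.42, edgeR adjusted p = 0.10). In Mrpl14, Mrpl55 and Mrpl22 the lowest femur library exceeded the highest mandible library. Mrpl47 had a log2 fold change of -1.34, from 7.11 to 13.3 CPM in the femur and 1.54 to 5.85 CPM in the mandible, with 24.2% of its exon bases overlapped by neighbouring genes. With the trend on transcript length removed, the log2 fold change was -0.98 for Mrpl14, -1.01 for Mrpl55 and -0.59 for Mrpl22.

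An adjusted p under 0.1 was reached by 5 members in all (6.49%, against 2.27% of all tested genes that were lower at that level), of which Mrps14 was named first and Mrpl55 second. The others, named after their values were seen except for Mrpl15, were Mrpl20, Mrpl15 and Mrpl57. Mrpl20 had 68.6, 41.2 and 51.9 CPM in the femur and 22.1, 24.7 and 31.7 CPM in the mandible (log2 fold change -1.04, SE 0.29, edgeR adjusted p = 0.069). Mrpl15, the longest large subunit gene by the length column, had 80.0, 41.1 and 77.8 CPM against 26.4, 34.7 and 34.5 CPM (log2 fold change -1.06, SE 0.31, edgeR adjusted p = 0.082). Mrpl57, specific to mitochondria, had 62.0, 35.1 and 48.3 CPM against 18.6, 26.7 and 26.8 CPM (log2 fold change -1.01, SE 0.31, edgeR adjusted p = 0.096). Femur S15 was the lowest femur library in all 3, and it still lay above the mandible libraries.

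The most abundant large subunit messenger RNAs per kilobase were Mrpl18, Mrpl52, Mrpl54 and Mrpl12, at 75.8, 37.2, 35.0 and 31.8 CPM per kilobase of the length column. Per kilobase of principal transcript the order was Mrpl33, Mrpl52, Mrpl18 and Mrpl20, at 147, 98.6, 86.9 and 52.4 CPM per kilobase. The rank of Mrpl33 depends on this scale, since its length column is 7326 bases and its transcript 478. Per kilobase of the length column its level was 9.60 CPM. Mrpl12, a protein of the stalk that recruits translation factors, had 78.7, 47.2 and 59.6 CPM in the femur and 44.1, 35.1 and 27.97 CPM in the mandible, without overlap (log2 fold change -0.79, SE 0.29, and -0.41 with the transcript length trend removed). Mrpl54 had 27.1 to 39.5 CPM against 20.9 to 24.6 CPM (log2 fold change -0.66), also without overlap, but it turned to 0.031 with the trend on the length column removed and to 0.18 with the trend on principal transcript length removed. In Mrpl18 the groups overlapped, at 155, 68.0 and 136 CPM in the femur and 114, 86.5 and 75.2 CPM in the mandible (log2 fold change -0.38, SE 0.33), since femur S15 was the lowest of the 6 libraries. It was at 0.067 and 0.060 with the trends on the length column and on transcript length removed. Mrpl52 overlapped too, with 38.3 to 55.3 CPM against 26.6 to 40.2 CPM, and its log2 fold change of -0.42 turned to 0.13 and 0.61 under the same corrections.

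In the large subunit, Mrpl9 alone had a positive value (log2 fold change 0.08, SE 0.32), with 35.2, 21.2 and 39.3 CPM in the femur and 34.9, 40.6 and 25.9 CPM in the mandible. Mrpl2, next to the site of peptide bond formation, had 16.5, 19.1 and 33.8 CPM against 29.97, 18.4 and 18.5 CPM (log2 fold change -0.05, SE 0.37). Mrpl49 was as close, at 15.9 to 19.2 CPM and 13.7 to 20.9 CPM (log2 fold change -0.07, SE 0.34). In Mrpl9, Mrpl2 and Mrpl49 the groups overlapped. Mrpl33 was set by one library, at 167 CPM in femur S15 (3625 counts) and 67.2 and 49.4 CPM in the other femur libraries, against 49.9, 35.8 and 52.7 CPM in the mandible. Mrpl53 had 0 counts in all 6 libraries. Other genes cover 88.0% of its exon bases, and the reason for its 0 counts was not tested. A level of 3 counts was 0.133 to 0.172 CPM. Mrpl53 failed the filter on low counts, so its difference between sites was not tested either. Across the tested members, the count in a single library ran from 22 to 3625.

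To compare the subunits, CPM per kilobase of the length column were summed in each library. The large subunit gave 957, 618 and 808 in femur S13, S15 and S18, and 554, 528 and 467 in mandible S16, S19 and S23. The group means were 794 ± 169.6 and 517 ± 44.5 (SD, n = 3 each). The small subunit gave 355, 285 and 354 in the femur and 218, 232 and 221 in the mandible, with means of 331 ± 39.9 and 224 ± 7.26. Both sums were lower in every mandible library than in every femur library. Their ratio, large to small, was 2.70, 2.17 and 2.28 in the femur and 2.54, 2.28 and 2.11 in the mandible. The group means of the ratio, 2.38 ± 0.277 and 2.31 ± 0.218, differed by less than the spread between libraries. Per kilobase of principal transcript, the ratio was 2.58, 2.63 and 2.22 in the femur and 2.46, 2.17 and 2.097 in the mandible. There the means, 2.48 ± 0.220 and 2.24 ± 0.193, were further apart than the SD of either group, and the groups still overlapped. Of the large subunit genes, Mrpl33 had the highest level on this scale (147 CPM per kilobase), with 167 CPM in femur S15. Its length column (7326 bases) exceeds its transcript (478 bases), and its part in these ratios was not tested. The ratio was also taken with Mrps30 and Mrps18a moved to the large subunit and Mrps36 left out. Per kilobase of the length column, it was then 2.59 ± 0.282 in the femur and 2.54 ± 0.209 in the mandible.

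**Figure D3:**
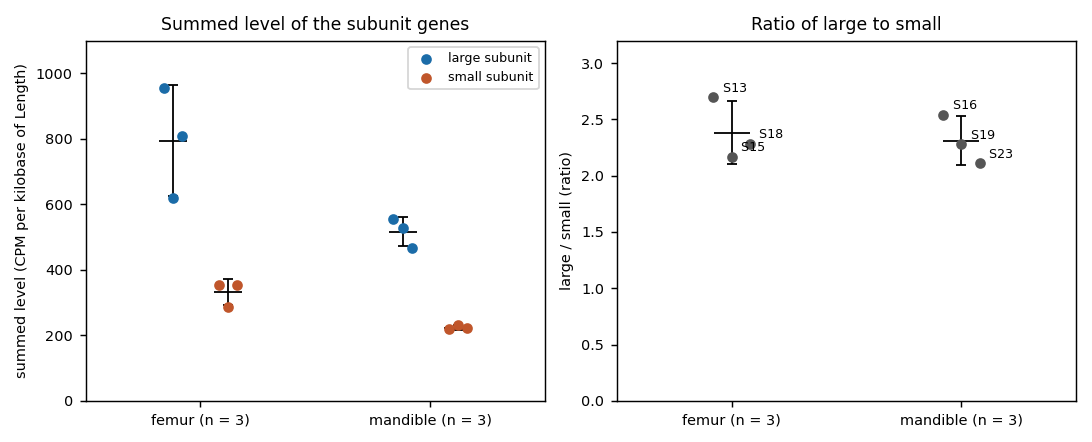
Left, summed CPM per kilobase of length of the large and small subunit genes in each library. Right, their ratio, with bars for mean ± SD (n = 3 libraries per group). The sums of each subunit do not overlap between the groups (large 618 to 957 against 467 to 554), and the ratios do (2.17 to 2.70 against 2.11 to 2.54).

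Per gene, the median log2 fold change was -0.65 in the large and -0.56 in the small subunit. The difference of the medians, -0.093, was smaller than its SD between libraries of the same group (0.22). At an unadjusted p under 0.05, 39.6% of large and 24.1% of small subunit genes were lower, against 7.25% of all tested genes, and the difference between those shares was not tested. Of 46 members with a bacterial counterpart, 24 had every mandible library below every femur library, and of 30 specific to mitochondria, 6 did. This held for 11.5% of all tested genes. The median log2 fold change was -0.76 with a bacterial counterpart and -0.54 for those specific to mitochondria. This order held in both subunits, at -0.76 and -0.58 in the large and -0.76 and -0.54 in the small. The median principal transcript was shorter in the former (1190.5 bases) than in the latter (1461 bases), and the part of length in this difference was not tested.

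The libraries of a group were not alike. Relative to the femur mean, the median log2 deviation of the members was 0.19 in S13, -0.30 in S15 and 0.12 in S18, and -0.72, -0.43 and -0.64 in mandible S16, S19 and S23. Femur S15 was the lowest femur library and also had the lowest summed level of neutrophil markers of the 6, and the part of neutrophils in its values was not tested. In mandible S16 the small subunit was the lower one (-0.78, against -0.53 for the large subunit), and in mandible S23 the large subunit was (-0.79 against -0.53). Of the 29 small subunit genes, 16 had their lowest mandible level in S16, and of the 48 large subunit genes, 25 had it in S23. Within a group, the highest library exceeded the lowest by a median of 1.60-fold in the femur and 1.63-fold in the mandible. The largest within-group spread was 6.46-fold, in Mrps33 in the mandible.

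Length was examined because fold change moved with it across all genes. The length column equals the merged exons of the gene in GENCODE M21 for all 78 members and ran from 607 bases (Mrpl34) to 8631 bases (Mrps35), with a median of 2541.5 in the large and 2172 in the small subunit and 3671 over all tested genes. The principal transcript was shorter, with a median of 1316 bases, and for 20 members the column was at least 2 times as long. In Mrpl33 it was 7326 bases for a transcript of 478. Across all tested genes, the log2 fold change was higher in longer genes, from a median of -0.65 in the shortest decile to 0.23 in the longest (Spearman's rho across genes 0.27, genes not being independent). Across members rho was 0.060, with 0.028 in the large and 0.098 in the small subunit. With principal transcript length, rho was 0.33 over all tested genes, 0.14 over the members, 0.22 in the large and -0.06 in the small subunit. Of the 77 members, 67 lay below the median of all tested genes of their own length decile, 42 of the large and 25 of the small subunit, by a median of -0.45. The 25 shortest members had a median log2 fold change of -0.78 and the 25 longest -0.56.

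**Figure D4:**
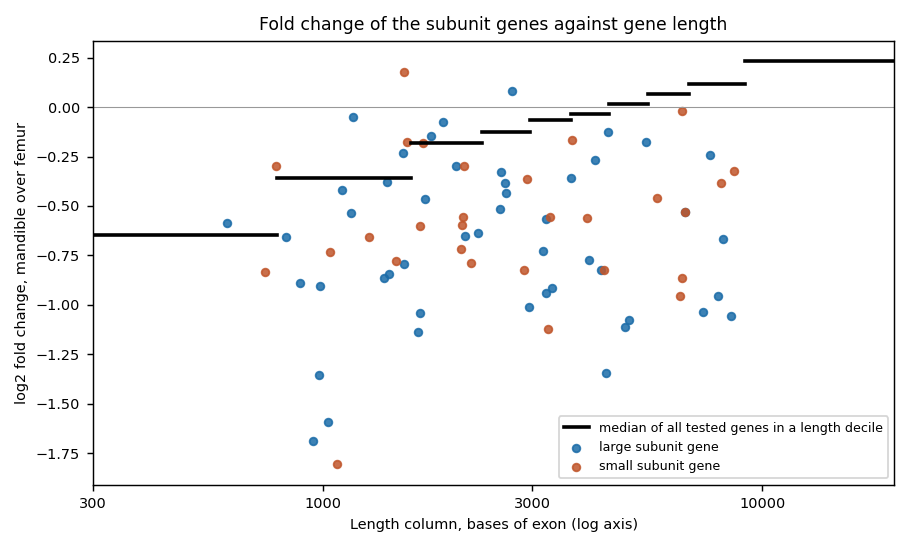
Log2 fold change of each tested member against the length column (bases, log axis), large subunit in blue and small in orange, with black lines for the median of all tested genes in each length decile. Members lie below the line of their decile in 67 of 77 cases, and the lines climb from -0.65 to 0.23.

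Among the shortest and longest genes, Mrpl34 (607 bases) had 18.4, 10.2 and 15.8 CPM in the femur and 11.3, 11.4 and 6.86 CPM in the mandible, with overlap (log2 fold change -0.59, SE 0.42). Mrps28 (783 bases) overlapped as well (log2 fold change -0.30, SE 0.37). Both turned sign with a length trend removed, Mrpl34 to 0.27 under either trend and Mrps28 to 0.43 with the length column and 0.40 with transcript length. At the long end, Mrpl48 (8152 bases) had 29.6 to 43.1 CPM against 13.1 to 29.5 CPM, and Mrps35 (8631 bases) had 24.7 to 39.6 CPM against 18.5 to 36.1 CPM (log2 fold changes -0.67 and -0.32). With the trend of log2 CPM on the length column removed in each library, 64 of 77 members lay below 0. At an unadjusted p under 0.05, 19 members were lower, as were 6.12% of all tested genes. With the trend on principal transcript length removed, an alternative chosen after seeing the data, 57 members lay below 0. There 13 were lower, as were 5.58% of all tested genes, and the median log2 fold change was -0.37 in the large and -0.15 in the small subunit. No member was called under either (Mrps14, edgeR adjusted p = 0.066 and 0.055).

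The members lay on 17 chromosomes, with 11 on chromosome 11. A start site of another protein-coding gene on the opposite strand within 1000 bases was found for 33 of 77 tested members (42.9%), against 15.4% of 13645 tested protein-coding genes. One such pair joins both subunits. Mrpl46 and Mrps11 overlap head to head on chromosome 7, with 12.2% and 7.97% of their exon bases covered by another gene, and had log2 fold changes of -0.84 and -0.79. Mrpl32 and its neighbour Psma2, a proteasome gene, had -1.08 and -1.05, while Mrpl14 (-1.69) lay beside Tmem63b (0.11) and Mrpl2 (-0.05) beside Klc4 (0.91). These pairs were named after their values were seen.

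Mitochondrial ribosomal proteins with other names had a log2 fold change below 0 in 5 of 5 genes (52.2% of all tested genes), with a median of -0.71. Every mandible library lay below every femur library in 1 of the 5 (20%, against 11.5% of all tested genes). Chchd1, a small subunit protein, had 62.7, 45.4 and 40.1 CPM in the femur and 11.01, 15.1 and 17.7 CPM in the mandible, without overlap, and fell by 1.76 on the log2 scale (SE 0.32, edgeR adjusted p = 0.0074). Its call was lost without femur S13 (edgeR adjusted p = 0.053), with the trend on the length column removed (log2 fold change -1.15, edgeR adjusted p = 0.055) and with the trend on transcript length removed (-0.97, edgeR adjusted p = 0.11). Aurkaip1 had a log2 fold change of -0.84, and Dap3, a GTP-binding protein of the small subunit, -0.05. The ribosomal RNAs of the mitochondrion did not pass the test. The small rRNA, mt-Rnr1, had 31934, 33061 and 37824 CPM against 23309, 25299.6 and 31520.5 CPM (log2 fold change -0.36, SE 0.50), and the large rRNA, mt-Rnr2, had 74206 to 85311 CPM against 53150 to 67877 CPM (-0.34, SE 0.58). In both, the mandible libraries lay below the femur libraries, but mt-Rnr1 turned to 0.24 and mt-Rnr2 to 0.012 with the trend on the length column removed, and mt-Rnr1 to 0.20 with the trend on transcript length removed.

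Factors that build the mitochondrial ribosome or work with it were described by the same counts, and their difference from the members was not tested. Of 26 assembly factors and rRNA modifiers, 19 were below 0 (median -0.34) and 2 were lower at an unadjusted p under 0.05 (7.69%, near the 7.25% of all tested genes). Mtg1, a GTPase of large subunit assembly, fell from 16.3, 12.7 and 15.8 CPM to 5.20, 4.08 and 4.23 CPM (log2 fold change -1.73, SE 0.43, edgeR adjusted p = 0.041), with no overlap. This call was lost when any library other than femur S15 was left out, with adjusted p from 0.059 (without mandible S16) to 0.21 (without femur S13), 0.20 for femur S18, 0.14 for mandible S19 and 0.083 for mandible S23. The call of Mtg1 was also lost with no normalization factors (edgeR adjusted p = 0.070). It was lost with the trend on transcript length removed (log2 fold change -1.47, edgeR adjusted p = 0.093) and kept with that on the length column removed (edgeR adjusted p = 0.048). Rbfa, which acts on the small subunit, had a log2 fold change of -0.55, and Noa1 0.27. Translation factors had a median of -0.16 (11 of 15 below 0, 1 or 6.67% lower at an unadjusted p under 0.05), among them Slirp at -1.36 and its partner Lrpprc at 0.14.

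Mitochondrial tRNA synthetases had a median of -0.16 (13 of 19 below 0, 2 or 10.5% lower at an unadjusted p under 0.05). In this list Mars2, which charges methionine, had 22.7, 26.3 and 23.9 CPM in the femur and 8.96, 14.7 and 11.8 CPM in the mandible (log2 fold change -1.04, SE 0.34, edgeR adjusted p = 0.12). It was called with the trend on the length column removed (-1.35, edgeR adjusted p = 0.047) and with the trend on transcript length removed (-1.59, edgeR adjusted p = 0.026). Lars2 had -0.06 and Wars2 0.28. Of 15 regulators of mitochondrial biogenesis, 10 were below 0 (median -0.20), none was lower at an unadjusted p under 0.05 and Ppargc1a was higher. Ppargc1a, a coactivator of NRF1 and GABP targets that muscle also expresses, had 0.0552, 1.06 and 0 CPM in the femur and 7.86, 1.19 and 7.15 CPM in the mandible, and did not pass the adjusted test (log2 fold change 3.83, edgeR adjusted p = 0.20). It was called by DESeq2 (adjusted p = 0.037) and by edgeR with no filter on low counts (adjusted p = 0.038). Leaving out femur S15 also gave a call by edgeR (log2 fold change 7.37, adjusted p = 0.019). The femur values left there, 0.0552 CPM in S13 and 0 in S18, lay below the level of 3 counts (0.166 and 0.133 CPM). The size of that change is therefore not fixed by the counts. Muscle markers summed to at most 7.97 CPM in the femur and 826 to 2568 CPM in the mandible. The part of muscle in the level of Ppargc1a was not tested. The GABP subunit Gabpb1 had a log2 fold change of -0.57 and Yy1 one of 0.16.

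The lists most like the members, cytosolic ribosomal proteins and complex I subunits, had median lengths of 1739 and 1532 bases, against 2533 for the members. Cytosolic ribosomal proteins, which form the ribosome outside the mitochondrion, had a median log2 fold change of -1.03 with 77 of 81 below 0 and 56 lower at an unadjusted p under 0.05 (69.1%). Complex I subunits, which include products of nuclear genes that assemble with proteins made on the mitochondrial ribosome, had a median of -0.79 with 38 of 38 below 0 and 20 lower (52.6%). The members, at -0.60 and 33.8%, lay nearer to 0 than both lists, and this difference was not tested.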

How the data were processed

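Monocyte RNA from 3 femur and 3 mandible libraries was measured by bulk RNA-seq. The deposited table holds raw counts per gene and library, which the authors made by trimming with Trimmomatic, mapping with HISAT2 2.1.0 to GRCm38 and counting with featureCounts, without normalization. The featureCounts version and the use of strand are not given in the sources used here. The table's positions did not match GRCm38, so positions came from GENCODE M21 by Ensembl identifier. Groups came from the sample titles.

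The test was edgeR 4.0.16 in R 4.3.3 (low counts removed by filterByExpr, min.count 10 and min.total.count 15, TMM scaling, quasi-likelihood fit and test, prior count 0.125, no covariates, Benjamini-Hochberg adjustment over all 18114 tested genes). CPM are TMM-scaled. Totals of 15718782 to 25371474 counts set the precision, and floors of 3 counts cover counting error only. Scripts were tested on simulated data. Alternatives were DESeq2 1.42.0, RLE size factors, no normalization factors, no filter, removal of a lowess trend on length (span 0.4), other length scales and subunit assignments, and each library left out. No sample column was left unused.

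The members and lists were chosen with earlier results of these data known. Named genes were members past the adjusted test, in each subunit the 4 most abundant per kilobase, the 4 most negative and the 3 most positive, the 3 shortest and 3 longest, the Mrps18 family, Mrps30, Mrps36, members failing the filter, and in each companion list the smallest p in each direction and the highest CPM. Other genes were named after their values were seen.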

Additional observations from a re-analysis of the deposited data

How the results depend on the processing

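The direction of the members' median, and of both subunits' medians held under every alternative run, with 57 to 75 members below 0, and calls did not. Members called numbered 6 with DESeq2, 5 with no filter on low counts, and 0 with RLE size factors, with no normalization factors and with either length trend removed, and 0 to 6 with one library left out (6 without femur S15, 0 without each of the others). With DESeq2 that was 7.79% of members, against 2.47% of all tested genes called lower. With no filter it was 6.49% against 1.35%, and without femur S15 7.79% against 3.24%. Where no member was called, 0.29% to 1.14% of all tested genes were called lower. Calls over all genes numbered 938, and 1547 with DESeq2, 1590 with no filter, and 434 to 1565 with one library left out. Of the calls, 74.8% were higher in the mandible. This share was 84.9% and 86.8% with the trend on the length column or on transcript length removed and 64.1% with no filter. With no filter the median of all genes was -1.09, below the -0.64 of the members. With the transcript length trend removed, 13 members were lower at an unadjusted p under 0.05, as were 5.58% of all tested genes. The median log2 fold change was then -0.29 for all members, -0.37 for the large and -0.15 for the small subunit. With one library left out the members lower at that p numbered 11 to 38, against 3.96% to 9.67% of all tested genes. The members' median was -0.80 to -0.53 and the difference of large and small medians -0.16 to 0.014, positive without femur S13. The ratio of large to small was 2.08 in the femur and 1.94 in the mandible without length scaling. With the structural assignment it was 2.42 and 2.32 without length scaling, and 2.59 and 2.54 per kilobase of the length column. Per kilobase of principal transcript, with subunits taken by name, it was 2.48 and 2.24. No paired analysis was possible because the labels give no animal per library, so whether femur and mandible libraries share animals is not known.

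Some single genes turned sign, among them genes not near 0 otherwise (Mrps21, Mrpl54 and Mrpl34). With no normalization factors Lars2 was at 0.047, Mrpl2 at 0.055, Mrpl49 at 0.020 and Mrps25 at 0.059. With the trend on the length column removed Lrpprc was at -0.079, Mrpl18 at 0.067, Mrpl2 at 0.50, Mrpl34 at 0.27, Mrpl49 at 0.22, Mrpl52 at 0.13, Mrpl54 at 0.031, Mrps15 at 0.16, Mrps23 at 0.20, Mrps28 at 0.43, mt-Rnr1 at 0.24 and mt-Rnr2 at 0.012. With the trend on transcript length removed Lrpprc was at -0.053, Mrpl18 at 0.060, Mrpl2 at 0.49, Mrpl34 at 0.27, Mrpl49 at 0.13, Mrpl52 at 0.61, Mrpl54 at 0.18, Mrps15 at 0.41, Mrps18a at 0.45, Mrps21 at 0.10, Mrps23 at 0.19, Mrps28 at 0.40, Yy1 at -0.18 and mt-Rnr1 at 0.20. With one library left out the log2 fold change ran from -0.48 to 0.21 for Lars2, -0.32 to 0.33 for Mrpl2, -0.26 to 0.0011 for Mrpl49, -0.19 to 0.27 for Mrpl9, -0.44 to 0.15 for Mrps25, -0.12 to 0.49 for Mrps6, -0.17 to 0.55 for Wars2 and -0.038 to 0.34 for Yy1. The causes were not tested.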
